A study of Homo sapiens with 12 samples.

Results

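The genes described here build the nuclear pore or carry cargo through it. Splicing events of these genes were chosen by symbol alone: an event counts if a gene symbol attached to it begins with NUP, IPO, XPO, TNPO, THOC, KPNA, KPNB or RANBP followed by a digit, or equals NXF1, and if it has a value in every value column. By this rule 63 of 10358 events in 32 genes were members in the authors' MISO table and 529 of 60623 events in 54 genes in their rMATS table. Together these are 592 of 70981 events, in 58 genes. The symbols fit the label, apart from some RANBP genes, noted below, whose proteins do other work.

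The cells were HEK293T, an established human embryonic kidney line, carrying a hairpin RNA delivered by lentivirus. The 12 poly(A) RNA libraries comprise 1 with a scramble hairpin as control, 2 with different hairpins for each of PRMT1, PRMT3, PRMT4, PRMT5 and PRMT7, and 1 for PRMT6. The targets are protein arginine methyltransferases, enzymes that add methyl groups to arginine, often in RNA-binding proteins, and the study asked how they bear on RNA splicing. The deposited tables hold 1 column for each target, and how both hairpins of a target were joined is not stated. No value thus has an SD or a replicate to check it, no test was possible, and all 6 knockdowns are set against the same scramble column, so that an unusual scramble value shifts all 6 differences alike. Read depth is unknown, and how far each knockdown lowered its target was not analysed here. PSI holds no expression level, so the cell line could not be checked by marker genes.

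Percent spliced in (PSI) is the share of an event's transcripts in the inclusive form, on a scale from 0 to 1. The inclusive form holds the cassette exon, the retained intron or the longer version of an exon with alternative 3' or 5' splice sites. MISO gave a PSI for scramble and for each knockdown. The authors' rMATS table gave a difference only, and its sign was turned here to knockdown minus control, so that each value given below from that table has the opposite sign to the one deposited. A difference of at least 0.1 PSI is called differing, by size alone. Coordinates are those of the tables, on GRCh37. What an exon codes for was read from GENCODE 29 transcripts matched by intron length and spacing within the same gene.

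The nuclear pore complex is a channel through the nuclear envelope, built of nucleoporins. Some form its scaffold, and others carry phenylalanine-glycine repeats that fill the channel and bind passing receptors. Importins and exportins, the karyopherins, carry proteins and some RNAs, and the small GTPase Ran sets their direction by loading and unloading cargo. Bulk mRNA takes another route: the THO complex helps to load the export receptor NXF1 onto spliced mRNA. Many cargoes of this system are themselves RNA-binding proteins with methylated arginines.

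Most member events sat near an end of the PSI scale and stayed there. In scramble cells 38 of the 63 MISO members (60.3%) had a PSI of 0.9 or higher and 18 (28.6%) one of 0.1 or lower, which left 7 (11.1%) between. Over all MISO events these shares were 46.3%, 26.4% and 27.2%. The PSI of a member spanned 0.02 over the 7 columns at the median, against 0.05 over all events, and 5 members (7.94%) spanned 0.1 or more, against 28.6% of all events. THOC3, a THO subunit, had both its listed exons at a PSI of 1 in every column. An exon of NUP58, a nucleoporin of the central channel, stood at 0.01 in every column. NUP160, of the scaffold's Y-shaped complex, ranged from 0.98 to 0.99, and NUP155, of the inner ring, from 0.96 to 0.98.

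**Figure D1:**
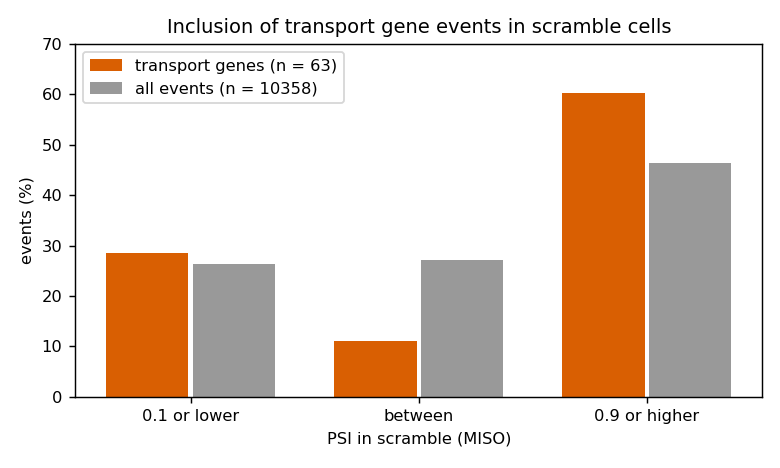
Share of events (y axis, percent) by their PSI in scramble cells (x axis, 3 bins), for the 63 events of transport genes and for all 10358 MISO events. The middle bin holds 11.1% of transport gene events and 27.2% of all events.

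Few members differed from scramble by MISO, and each one that did was lower in the knockdown, with none higher. Their number was 2 in PRMT1 knockdown, where 7.40% of all events differed, and 3 in PRMT3 knockdown, where 10.5% did. It was 1 for PRMT4 (7.47% of all events), 1 for PRMT5 (8.27%), 0 for PRMT6 (6.84%) and 1 for PRMT7 knockdown (6.34%). Over all events the lower shares were 4.41%, 6.12%, 4.24%, 3.71%, 4.33% and 3.80% in the same order, and the higher ones 2.99%, 4.37%, 3.23%, 4.57%, 2.50% and 2.54%. In all, 4 events of the genes IPO13, NUP50 and NUP62 differed in at least 1 knockdown, which is 6.35% of members, against 21.5% of all events. The share of events near the ends of the scale, given above, was also higher for the members. Among events with a mean PSI from 0.05 to 0.95 only 17 members were left of 4746. Of these 2, 3, 1, 1, 0 and 1 differed in PRMT1, PRMT3, PRMT4, PRMT5, PRMT6 and PRMT7 knockdown, where 16.1%, 22.8%, 16.2%, 17.9%, 14.8% and 13.8% of all such events did. The median absolute difference from scramble was 0.01 for the members in every knockdown and 0.01 to 0.02 over all events.

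**Figure D2:**
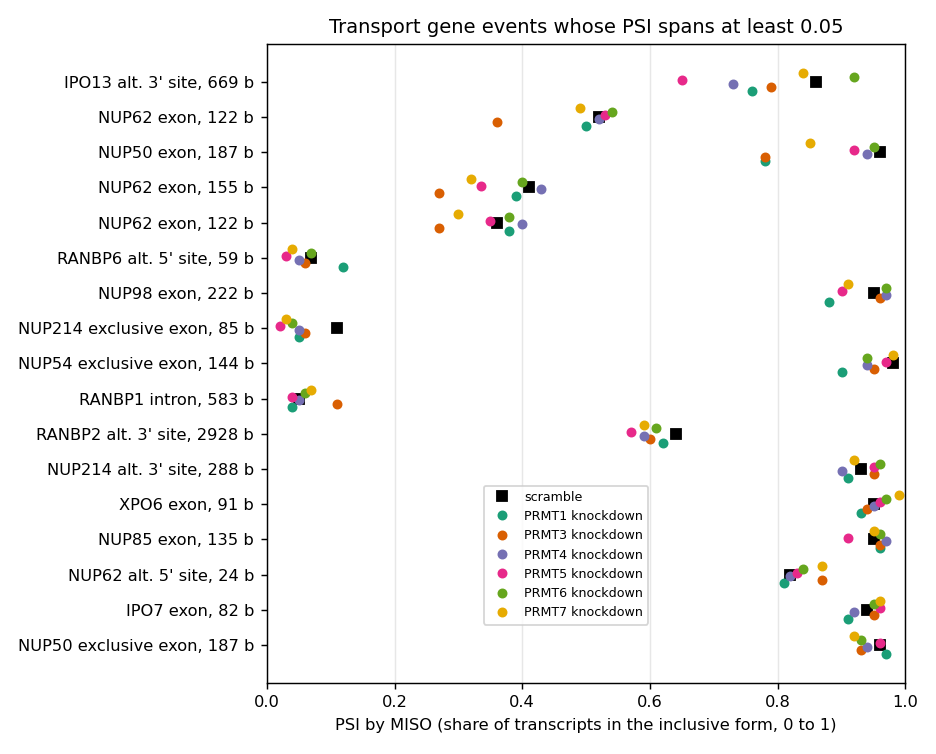
PSI by MISO (x axis, 0 to 1) of the 17 member events whose values span at least 0.05. Each line of the y axis is 1 event with its length in bases, the black square is scramble and each coloured point is 1 knockdown. IPO13 and NUP62 events lie away from the ends of the scale, and the NUP50 cassette exon leaves the upper end in PRMT1, PRMT3 and PRMT7 knockdown.

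NUP50 is a mobile nucleoporin of the nuclear side that helps importin alpha to let go of its cargo. Its cassette exon of 187 bases (chr22:45571775-45571961, plus strand) is coding, and as its length is no multiple of 3, leaving it out shifts the reading frame. GENCODE lists skipping transcripts both as protein coding and as targets of nonsense-mediated decay, the pathway that removes mRNAs with an early stop. The sequence is shown because this exon had the largest difference of any nucleoporin event by MISO.
NUP50 exon: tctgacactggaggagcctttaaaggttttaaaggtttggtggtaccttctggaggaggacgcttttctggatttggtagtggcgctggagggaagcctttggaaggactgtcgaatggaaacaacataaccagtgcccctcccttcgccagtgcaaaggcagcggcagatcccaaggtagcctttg
Its PSI was 0.96 in scramble, 0.78 for PRMT1, 0.78 for PRMT3, 0.94 for PRMT4, 0.92 for PRMT5, 0.95 for PRMT6 and 0.85 for PRMT7 knockdown. All 6 knockdowns were thus below scramble, by at least 0.1 in PRMT1, PRMT3 and PRMT7. For the same splice junctions the authors' deposited table gave differences of -0.032, -0.054, -0.041, -0.034, -0.009 and -0.050 in the same order. These were lower in every knockdown, but smaller in size than by MISO except in PRMT4. With other flanks the authors' deposited table gave -0.044, -0.1, -0.051, -0.02, -0.023 and -0.001, which reached 0.1 in size in PRMT3 knockdown. MISO also read this exon in a mutually exclusive pair, where its PSI lay at 0.96 in scramble and 0.92 to 0.97 among the knockdowns. The exon's reading thus depended on which partner exons were considered.

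A second NUP50 event comes from the rMATS table. Use of the downstream of a pair of 5' splice sites, which adds 34 bases (chr22:45567025-45567058) in the 5' UTR or in transcripts listed for nonsense-mediated decay, was higher in every knockdown. With the sign turned, the authors' deposited table gave 0.097 for PRMT1, 0.648 for PRMT3, 0.458 for PRMT4, 0.648 for PRMT5, 0.358 for PRMT6 and 0.458 for PRMT7 knockdown. PRMT1 knockdown lay well below the other 5, and 2 pairs of knockdowns have equal values. The authors' deposited table also read the exon whole, against skipping, and both forms were then slightly lower in every knockdown. The form of 190 bases, with the added 34, had differences of -0.038 to -0.005. The form of 156 bases, without them, had -0.048 to -0.01.

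NUP62, the phenylalanine-glycine nucleoporin at the centre of the channel, was the member gene with the most events in the authors' deposited table, 29. Of these, 13 differed in at least 1 knockdown, where 25.9% of all events of that table did. Some of the 13 read the same exon or splice site with different flanks, so they are not 13 separate changes. The MISO events of NUP62 carry the symbol of IL4I1 too, a neighbouring gene for an amino acid oxidase whose transcripts can begin at the same first exons. The reads of both genes thus cannot be told apart there. The authors' deposited table names NUP62 alone for the same junctions, so this limit holds for its readings of these exons too. A noncoding exon of NUP62 begins at either of a pair of 3' splice sites and is then 122 or 155 bases long (chr19:50430951-50431072 and chr19:50430951-50431105, minus strand). The 155-base form had a PSI of 0.41 in scramble, 0.39 for PRMT1, 0.27 for PRMT3, 0.43 for PRMT4, 0.335 for PRMT5, 0.40 for PRMT6 and 0.32 for PRMT7 knockdown. PRMT3 knockdown was lowest, and PRMT4 knockdown stood just above scramble. The authors' deposited table gave -0.040, -0.106, -0.020, -0.072, 0.002 and -0.078 for the same junctions. Of the member events with the same junctions in both tables, this was the only one that both put at 0.1 or more in the same knockdown, PRMT3.

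The 122-base form was read by MISO with different flanking exons. In the first reading its PSI was 0.52 in scramble, 0.50 for PRMT1, 0.36 for PRMT3, 0.52 for PRMT4, 0.53 for PRMT5, 0.54 for PRMT6 and 0.49 for PRMT7 knockdown. The second reading gave 0.36 in scramble, 0.38, 0.27, 0.40, 0.35, 0.38 and 0.30, again with PRMT3 knockdown lowest, by 0.09. For the first reading the authors' deposited table had -0.016 for PRMT3 knockdown, smaller than -0.061 for PRMT1 and -0.085 for PRMT4 knockdown, so the tables differ on where this exon was lowest. The choice between both 3' splice sites, 33 bases apart, was read with 3 sets of flanks in the authors' deposited table, and every difference was negative, from -0.264 to -0.024. For the set with the largest mean these differences were -0.166, -0.044, -0.127, -0.090, -0.219 and -0.115. The intron of 1510 bases next to this exon had differences of -0.123 to -0.038 in the authors' deposited table, and 1601 bases of the same intron, up to another 5' splice site, had -0.133 to -0.021, all negative. Read to the other 3' splice site, the intron went both ways in the authors' deposited table, from -0.078 to 0.157 over 1568 bases and from -0.089 to 0.029 over 1477 bases.

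NUP54, a partner of NUP62 in the channel, gave the largest difference of any member. In the authors' deposited table its exon of 162 bases (chr4:77068632-77068793, minus strand) had differences of 0.871 for PRMT1, 1.0 for PRMT3, 0.744 for PRMT4, 0.324 for PRMT5, 0.59 for PRMT6 and 0.553 for PRMT7 knockdown. A difference of 1.0 means a PSI of 0 in control and of 1 in the knockdown. The flanks of this reading occur in transcripts listed for nonsense-mediated decay or as noncoding. With a second set of flanks the authors' deposited table gave 0.321, 0.45, 0.208, 0.139, 0.324 and 0.208, and with the last set 0.001 to 0.007. The means over the 6 knockdowns were thus 0.6803, 0.275 and 0.0028 for the same exon. A NUP54 intron of 332 bases was lower in each knockdown of the authors' deposited table, with -0.138 in PRMT6, -0.115 in PRMT3 and between -0.09 and -0.05 in the others. An event over a shorter form of that intron had -0.006 to 0.012 in the authors' deposited table. By MISO the largest NUP54 difference was 0.08, in an exclusive exon of 144 bases with a PSI of 0.98 in scramble and 0.90 in PRMT1 knockdown.

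NUP214 sits on the cytoplasmic side, where it binds exportin XPO1 and anchors the helicase that strips proteins from arriving mRNA. An alternative 3' splice site adds 33 bases (chr9:134021516-134021548, plus strand), which is 11 codons and keeps the frame. It is shown because all 6 knockdowns used it less, and the final 2 bases in capitals are the AG at which the shorter form is cut.
NUP214 added bases: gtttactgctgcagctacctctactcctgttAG
In the authors' deposited table the differences were -0.141 for PRMT1, -0.176 for PRMT3, -0.155 for PRMT4, -0.083 for PRMT5, -0.088 for PRMT6 and -0.088 for PRMT7 knockdown. The first 3 passed 0.1 and the other 3 lay just short of it. MISO gave this event a PSI of 0.82 for PRMT1, 0.83 for PRMT5, 0.90 for PRMT6 and 0.68 for PRMT7 knockdown but none in scramble, so no difference could be taken there. An exclusive exon of NUP214, 85 bases long, was just short of 0.1 by MISO, at 0.11 in scramble and 0.05, 0.06, 0.05, 0.02, 0.04 and 0.03 in the knockdowns. All 6 were lower, with PRMT5 lowest.

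Of the other nucleoporins, NUP98, which carries repeats and shuttles between pore and nucleoplasm, had an exon of 222 bases (chr11:3707203-3707424) at a PSI of 0.95 in scramble, 0.88 for PRMT1, 0.96 for PRMT3, 0.97 for PRMT4, 0.90 for PRMT5, 0.97 for PRMT6 and 0.91 for PRMT7 knockdown. The knockdowns lay on both sides of scramble, none by 0.1. NUP85, of the Y-shaped scaffold, had an exon form of 114 bases that was higher in all 6 knockdowns of the authors' deposited table, by 0.228, 0.137, 0.111, 0.072, 0.102 and 0.183. The same exon with other flanks had differences of -0.056 to 0.026 in the authors' deposited table. By role, 26 of 239 nucleoporin events in 9 of 20 genes differed in at least 1 knockdown of that table, and 3 of 37 events in 2 of 17 genes did so by MISO. Over all events these shares were 25.9% and 21.5%.

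Among the import receptors the only MISO event to differ was in IPO13, a karyopherin that works in both directions. An alternative 3' splice site adds 669 bases (chr1:44415089-44415757, plus strand), which is 223 codons, to an internal exon. GENCODE lists the longer form as coding and the shorter one in a noncoding transcript. The last 60 added bases are shown, with the AG at which the shorter form is cut in capitals, followed by the 68 bases that remain in both forms (chr1:44415758-44415825).
IPO13 end of the added part: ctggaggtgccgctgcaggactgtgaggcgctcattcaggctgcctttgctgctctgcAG
IPO13 part common to both forms: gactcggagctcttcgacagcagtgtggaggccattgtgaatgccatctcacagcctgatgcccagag
PSI of the longer form was 0.86 in scramble, 0.76 for PRMT1, 0.79 for PRMT3, 0.73 for PRMT4, 0.65 for PRMT5, 0.92 for PRMT6 and 0.84 for PRMT7 knockdown. PRMT5 knockdown was lowest, by 0.21, PRMT1 and PRMT4 also passed 0.1, and PRMT6 knockdown lay above scramble. No event of the authors' deposited table had these junctions. It instead read the exon whole, in its 68-base or its 737-base form, against skipping. The 68-base exon was higher in the authors' deposited table, by 0.047 for PRMT1, 0.136 for PRMT3, 0.106 for PRMT4, 0.121 for PRMT5, 0.053 for PRMT6 and 0.047 for PRMT7 knockdown. As that reading is against skipping, it gives no share of the short form relative to the long one. The 737-base exon, read with the same flanks, also stood higher in all 6 knockdowns of the authors' deposited table, by 0.011 to 0.044. By MISO, against the short form, the long form was lower in every knockdown but PRMT6.

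TNPO2, a transportin that imports hnRNP proteins and other RNA-binding cargo, had neighbouring events in the rMATS table that went opposite ways. An alternative 3' splice site adding 62 bases (chr19:12816583-12816644, minus strand) was used less in all 6 knockdowns of the authors' deposited table, with differences of -0.165 for PRMT1, -0.328 for PRMT3, -0.103 for PRMT4, -0.323 for PRMT5, -0.175 for PRMT6 and -0.299 for PRMT7. It was 1 of 6 member events that differed in the same direction in all 6 knockdowns, and 2 of the 6 were readings of the same NUP54 exon. The share of all events that did so was not computed, so these 6 cannot be called many or few. A TNPO2 exon of 100 bases near that splice site (chr19:12816824-12816923) had differences of -0.006, 0.264, 0.080, 0.266, 0.170 and 0.208 in the authors' deposited table. PRMT3, PRMT5 and PRMT7 knockdown had the largest values in both events. With other flanks both were smaller in the authors' deposited table, with means over the 6 knockdowns of -0.0397 for the splice site and 0.0138 for the exon.

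Other import receptors differed in few knockdowns. IPO11 had an exon of 80 bases that stood 0.26 higher in PRMT1 and 0.178 in PRMT7 knockdown, and from -0.099 to 0.048 in the others, in the authors' deposited table. For TNPO1, the sister gene of TNPO2, a 3' splice site 33 bases from its neighbour was 0.151 higher in PRMT3 knockdown and from -0.012 to 0.013 in the others, in the authors' deposited table. In all, 8 of 120 import receptor events in 7 of 16 genes differed in that table and 1 of 10 events in 1 of 7 genes did so by MISO, against 25.9% and 21.5% of all events. An exon of TNPO3, which imports SR proteins, had a PSI of 0.90 to 0.93 over all 7 columns, and another 0.02 to 0.05.

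The exportins varied little by MISO, where the largest of their differences over 6 events of XPO1 and XPO6 was 0.04. A 5' UTR exon of XPO1, the main exportin for proteins with a leucine-rich signal, stood at 0.02 to 0.05. An exon of XPO6, which exports actin, had a PSI of 0.95 in scramble and 0.93 to 0.99 in the knockdowns. Of 65 exportin events in the authors' deposited table, 4 in 3 of 5 genes differed, against 25.9% of all events. XPO6 had an exon of 136 bases with differences of 0.026, -0.118, 0.055, 0.259, 0.12 and 0.048 in the authors' deposited table, lower in PRMT3 and highest in PRMT5 knockdown, and of -0.026 to 0.013 with other flanks. XPO4 had an exon of 106 bases that was higher in every knockdown of the authors' deposited table, by 0.113 in PRMT6 and 0.136 in PRMT7 and by 0.051 to 0.066 in the others. Alternative 5' splice sites of XPO5, which exports microRNA precursors, and XPO7 were on the same side in all 6 knockdowns of the authors' deposited table, but only by 0.005 to 0.007 and 0.002 to 0.029.

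The symbols that begin with RANBP name proteins of several kinds. RANBP1 helps Ran to hydrolyse GTP, RANBP2 forms the cytoplasmic filaments of the pore, RANBP3 assists XPO1, RANBP6 and RANBP17 resemble karyopherins, and RANBP9 and RANBP10 are scaffolds of a ubiquitin ligase. By MISO none of 5 events in 3 genes differed. RANBP2 had a 3' splice site event of 2928 bases (chr2:109379693-109382620) with a PSI of 0.64 in scramble and 0.62, 0.60, 0.59, 0.57, 0.61 and 0.59 in the knockdowns, all slightly lower. Reads of RANBP2 can also come from its near-identical RGPD copies, so the value is uncertain. Retention of a RANBP1 intron of 583 bases, which hosts a small nucleolar RNA, was 0.05 in scramble, 0.11 in PRMT3 knockdown and 0.04 to 0.07 in the others. RANBP6 was highest in PRMT1 knockdown, at 0.12 against 0.07 in scramble and 0.03 to 0.07 in the others, for a 5' splice site adding 59 bases.

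Of the 55 events of this role in the authors' deposited table, 14 differed in at least 1 knockdown, a share near the 25.9% of all events there. They came from RANBP3 (7 of 24 events), RANBP17 (6 of 11) and RANBP10 (1 of 10). The RANBP3 exon of 204 bases (chr19:5951404-5951607, minus strand) is 68 codons long and keeps the frame. It is shown because its difference had the same sign in every knockdown.
RANBP3 exon: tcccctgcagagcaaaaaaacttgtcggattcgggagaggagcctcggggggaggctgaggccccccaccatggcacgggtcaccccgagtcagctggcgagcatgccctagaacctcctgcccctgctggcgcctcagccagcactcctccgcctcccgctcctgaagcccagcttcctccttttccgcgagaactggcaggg
The authors' deposited table gave this exon differences of -0.09 for PRMT1, -0.275 for PRMT3, -0.109 for PRMT4, -0.102 for PRMT5, -0.119 for PRMT6 and -0.235 for PRMT7 knockdown. PRMT3 and PRMT7 knockdown were lowest, and PRMT1 was just under 0.1 in size. No matched GENCODE transcript held the exon with the flanks of this reading. The sequence and its coding annotation come from transcripts with other flanks. With those flanks the exon was lower in all 6 knockdowns of the authors' deposited table too, but only with differences of -0.035 to -0.004. RANBP17 had an exon of 181 bases with differences of -0.204, -0.301, -0.32, -0.273, -0.343 and -0.34 in the authors' deposited table, and of -0.251, -0.333, -0.292, -0.07, -0.275 and -0.343 with other flanks. Both readings were negative throughout, and PRMT5 knockdown was the only one to differ much between them. A RANBP17 exon of 161 bases, found in transcripts listed for nonsense-mediated decay, was higher in the authors' deposited table, by 0.53, 0.461, 0.606, 0.48, 0.225 and 0.401. No RANBP17 event had a PSI in every MISO column.

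Of the mRNA export genes, THOC3, THOC6 and THOC7 had 5 MISO events, none with a difference above 0.04. Of their 50 events in the authors' deposited table, 6 in 4 of 7 genes differed, against 25.9% of all events. THOC1, a core THO subunit, had an intron of 197 bases with differences of 0.058 for PRMT1, 0.29 for PRMT3, 0.079 for PRMT4, 0.129 for PRMT5, -0.004 for PRMT6 and 0.118 for PRMT7 knockdown, in the authors' deposited table. THOC2, another THO subunit, had a 3' splice site adding 81 bases with a reading that was lower in every knockdown of the authors' deposited table, at -0.037, -0.16, -0.069, -0.039, -0.019 and -0.105. Another reading of that site in the authors' deposited table, with other flanks, had -0.053 to 0.024 and was positive in PRMT5 knockdown. PRMT3 knockdown had the largest size in the THOC1 intron and in the first THOC2 reading. In NXF1, the mRNA export receptor, an intron of 1801 bases stood 0.189 higher in PRMT3 knockdown and from -0.025 to 0.039 in the others, in the authors' deposited table. An NXF1 exon of 110 bases in a noncoding transcript had the same difference, 0.465, in all 6 columns of the authors' deposited table. All 6 differing events of the mRNA export genes differed in PRMT3 knockdown, alone or with others.

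**Figure D3:**
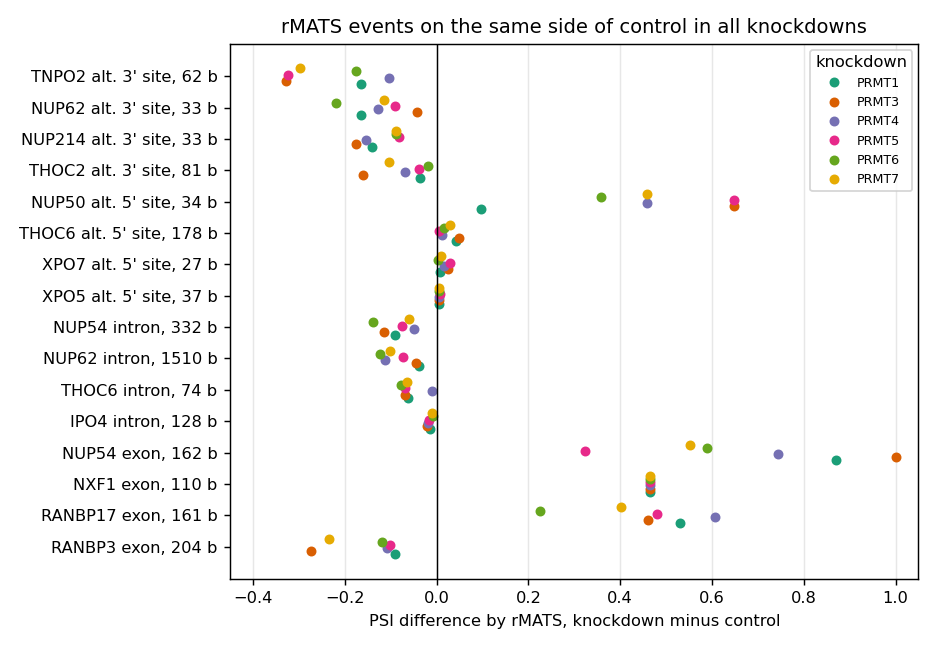
Differences in PSI from the authors' rMATS table (x axis, knockdown minus control) of the 16 member events named for lying on the same side of control in all 6 knockdowns, up to 4 genes for each event type. Each point is 1 knockdown and the vertical line is control; the 6 NXF1 points coincide at 0.465, and the XPO5 points lie at 0.005 to 0.007.

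Over all roles together, PRMT3 knockdown had the most differing members in the authors' deposited table. In PRMT1 knockdown 17 of 529 member events differed (3.21%), where 12.5% of all events did, and 42 (7.94%) did so in PRMT3 knockdown, against 15.3% of all events. There were 25 for PRMT4 (4.73%, against 13.8%), 24 for PRMT5 (4.54%, against 13.8%), 33 for PRMT6 (6.24%, against 15.1%) and 24 for PRMT7 knockdown (4.54%, against 12.4%). In at least 1 knockdown 58 of the 529 member events, in 26 genes, differed, against 25.9% of all events. The median of the largest absolute difference was 0.012 for members and 0.035 for all events, and 81.1% of members against 58.5% of all events stayed within 0.05 in every knockdown. By direction, 10 were higher and 7 lower in PRMT1 knockdown, 24 and 18 for PRMT3, 11 and 14 for PRMT4, 17 and 7 for PRMT5, 21 and 12 for PRMT6, and 14 and 10 for PRMT7. Over all events the higher shares in the same order were 6.59%, 7.64%, 6.84%, 8.16%, 7.16% and 6.57%, and the lower ones 5.94%, 7.68%, 6.91%, 5.66%, 7.90% and 5.85%. These counts were not tested.

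Events on the same side of control in all 6 knockdowns were counted in both tables. By any size 1 MISO member (1.59%) was higher than scramble in all 6 knockdowns, a 5' splice site of RANBP1, against 8.61% of all events. A further 5 (7.94%) were lower, in NUP50, NUP93, RANBP2 and NUP214 with a pair of events, a share near the 8.45% of all events. Of the members in the authors' deposited table, 120 (22.7%) were higher and 73 (13.8%) lower in all 6 knockdowns. Over all events these shares were 22.8% and 17.8%. The 6 differences of an event share its control value, and many are of a few thousandths.

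The rMATS table reads 1 exon or splice site repeatedly, with different flanking exons, and readings of the same part could differ in size. The 529 events held 451 distinct alternative parts, of which 52 had at least 1 differing event. Of these 52 parts 22 were read in more than 1 event, and in 2 of the 22, the NUP62 splice site and the RANBP17 exon of 181 bases, every event differed in some knockdown. As the parts were chosen for a differing event, a gap to their other readings comes partly from that choice. The same counts over all parts of the table were not made. Of the 58 differing events 2 had the same junctions as a listed MISO event, the NUP62 exon of 155 bases and the NUP214 splice site.

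**Figure D4:**
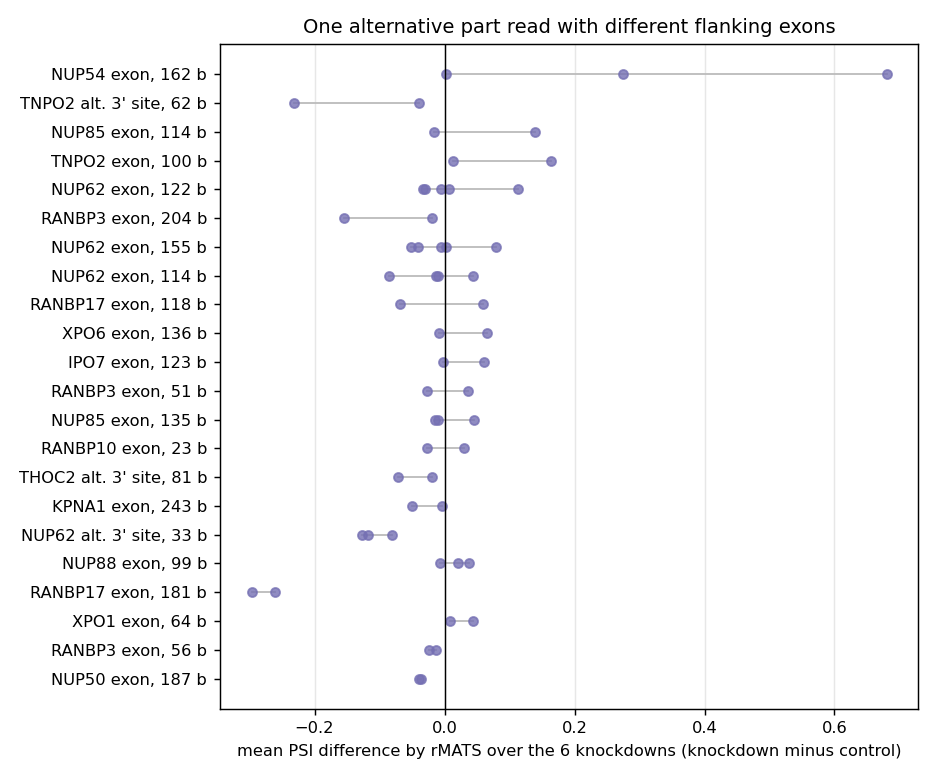
Mean PSI difference over the 6 knockdowns in the authors' rMATS table (x axis, knockdown minus control) for the 22 alternative parts with a differing event that were read in more than 1 event. Each point is 1 reading with its own flanking exons, and the grey line joins the readings of a part; NUP54 spans 0.0028 to 0.6803, while the RANBP17 exon of 181 bases lies at -0.2968 and -0.2607.

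Where both tables held the same junctions, most gaps were small, as were most differences. A match was found for 49 of the 63 MISO members, and of the 46 to 48 with a value in both, 43 to 47 lay within 0.05 of each other. Of the 5 matched differences that MISO put at 0.1 or more, in NUP50 and NUP62, 1 reached 0.1 in the authors' deposited table. The root mean square gap between the MISO difference and that of the authors' deposited table was 0.0138 in PRMT6 and 0.0717 in PRMT5 knockdown, the lowest and the highest. The largest gap, 0.48, was in a NUP214 exon of 85 bases, for which the authors' deposited table gave -0.5 in PRMT5 knockdown alone and no other value, where MISO had 0.06 in scramble and 0.04 in PRMT5 knockdown.

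Missing values took out many members. MISO listed 91 events of these genes, of which 28 lacked a value in some column, and this removed every event of KPNA4, KPNB1, NXF1, RANBP9, RANBP10, RANBP17, THOC2, TNPO1 and XPO5. Only 13 of the 28 had a scramble value, and none of these 13 differed by 0.1. The rMATS table listed 1292 and 763 were left out, with every event of KPNA4 and NUP210L. Of the 430 rMATS cassette exons of members 177 (41.2%) had a length that is a multiple of 3, against 39.3% of all cassette exons in that table.

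Other genes of the same pathways, from lists by function, differed in both directions. Of other pore genes, 6 had 9 MISO events and 3 of these differed in at least 1 knockdown, where 21.5% of all events did. In PRMT1, PRMT3, PRMT4, PRMT5, PRMT6 and PRMT7 knockdown 0, 0, 2, 0, 1 and 1 were higher and 1, 1, 1, 1, 1 and 0 lower. AHCTF1, which seeds pore assembly on chromatin, had an exon of 134 bases with a PSI of 0.64 in scramble, 0.66 for PRMT1, 0.49 for PRMT3, 0.79 for PRMT4, 0.71 for PRMT5, 0.83 for PRMT6 and 0.74 for PRMT7 knockdown. PRMT3 knockdown was the only one below scramble in this reading. As an exclusive exon, the same exon had 0.41 in scramble and 0.40, 0.40, 0.51, 0.43, 0.46 and 0.48 in the same order. Thus 2 of the 3 differing pore events were readings of this AHCTF1 exon. SEH1L, of the Y-shaped complex, had a 3' splice site event at 0.83 in scramble, 0.70 for PRMT1, 0.68 for PRMT4, 0.71 for PRMT5 and PRMT6, 0.83 for PRMT3 and 0.82 for PRMT7. Of other receptor and Ran cycle genes, 7 had 18 MISO events, and the 6 that differed, again against 21.5% of all events, were all of RANGRF, whose protein binds Ran. By knockdown, in the order just used, 0, 2, 0, 0, 0 and 4 were higher and 1, 1, 2, 1, 1 and 1 lower. All 6 RANGRF events lie within the same 398 bases (chr17:8192733-8193130), so these counts are not of separate changes. A RANGRF intron of 224 bases was retained at 0.87 in scramble, 0.75 for PRMT1, 0.54 for PRMT3, 0.66 for PRMT4, 0.75 for PRMT5, 0.76 for PRMT6 and 0.66 for PRMT7, lower in all 6. The 398 bases that hold it were read as an intron in 2 events. In 1 of these PSI was 0.75 in scramble and 0.70, 0.85, 0.75, 0.77, 0.72 and 0.91 in the same order, highest in PRMT7 knockdown.

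Of other mRNA export genes, 13 had 35 MISO events, and 7 of these differed in at least 1 knockdown, a share near the 21.5% of all events. Higher counts were 0, 0, 1, 0, 0 and 0 and lower counts 1, 6, 3, 2, 3 and 2 in PRMT1, PRMT3, PRMT4, PRMT5, PRMT6 and PRMT7 knockdown. CHTOP, an export adaptor whose protein is itself methylated on arginine, had an exon of 187 bases with a PSI of 0.56 in scramble, 0.49 for PRMT1, 0.43 for PRMT3, 0.66 for PRMT4, 0.39 for PRMT5, 0.33 for PRMT6 and 0.47 for PRMT7. Only PRMT4 knockdown was above scramble. An intron of PCID2, of the TREX-2 complex, was retained less in PRMT3 (0.70), PRMT4 (0.75) and PRMT7 knockdown (0.77) than in scramble (0.89), while PRMT1, PRMT5 and PRMT6 stood at 0.86. The 3 lists had, in the authors' deposited table, 6 of 77, 8 of 89 and 22 of 142 events differing in at least 1 knockdown, against 25.9% of all events.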

How the data were processed

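RNA from HEK293T cells was sequenced as stranded poly(A) libraries, per the labels' protocols. Reads were trimmed or aligned with tools that include cutadapt 1.18 and HISAT, on GRCh37, per the submitters' processing notes. For HISAT, MISO and rMATS, no version was given in the sources used here. MISO PSI values were deposited by the authors as a fraction from 0 to 1 and rMATS differences as a score from -1 to 1, with 1 column per target, no read numbers and no p-value. Splicing events with a value in all columns were used, leaving aside 1 empty line in the first table.

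The members and lists were chosen with earlier results of these data known. The sign of the rMATS score is not stated in the authors' table. Over 7200 to 7543 events per target matched to MISO by their junctions, the deposited value correlated with knockdown minus control at -0.59 to -0.346, across events, which are not independent replicates. It was therefore multiplied by -1. With 1 column per target no test across libraries could be run, so a difference of 0.1 PSI in size stands in. Named were every differing MISO member, the 4 genes per event type with the largest rMATS mean among events on the same side in all 6 knockdowns, and the 3 genes per target farthest from the other 5. Named in addition, after their values were seen, were MISO events just under 0.1 or near constant, other readings of a named exon, and examples from the pathway lists and each role. No event of a role other than nucleoporins, import receptors and Ran-binding proteins had a mean PSI from 0.2 to 0.8. GENCODE 29 transcripts, of another build, gave annotation and sequences. An event was matched by the length and spacing of its introns within the gene, and its coordinates were shifted by the offset so found. In this way 56 MISO and 445 rMATS member events were matched. Counting was tested on simulated data. Python 3.11.15, numpy 2.4.6, pandas 2.3.3 and matplotlib 3.10.9 were used.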

Additional observations from a re-analysis of the deposited data

Results flagged for a closer look

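Of the 529 member events of the authors' deposited table, 10 were at least 0.1 higher in some knockdowns and at least 0.1 lower in others. How often this happened over all events of that table was not counted, so these 10 cannot be called unusual. No MISO member did so. The difference between knockdowns was not tested, and the knockdowns share their control value. The gaps between the highest and the lowest knockdown below come from the authors' deposited table.

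NUP35, which links the inner ring of the pore to the membrane, had the widest gap, 0.829, for a 5' splice site adding 235 bases: the authors' deposited table put it at 0.563 in PRMT6 and -0.266 in PRMT7 knockdown. The RANBP3 exon of 51 bases had a gap of 0.511, from -0.15 in PRMT4 to 0.361 in PRMT6 knockdown, in the authors' deposited table. A RANBP3 pair of 3' splice sites 3 bases apart spanned 0.372 in the authors' deposited table, from -0.173 in PRMT5 to 0.199 in PRMT6 knockdown. Of the NUP62 exons in the authors' deposited table, the one of 114 bases spanned 0.426 and was negative in PRMT4 knockdown, at -0.298. Its value was 0.053 in PRMT7 knockdown and the same, 0.128, in PRMT1, PRMT3, PRMT5 and PRMT6 knockdown. In the authors' deposited table the NUP62 exons of 122 and 155 bases spanned 0.42 and 0.315, with PRMT3 knockdown at -0.206 and -0.146 and PRMT1 at 0.214 and 0.169.

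The XPO6 exon of 136 bases spanned 0.377 in the authors' deposited table, from PRMT3 to PRMT5 knockdown. An XPO1 exon of 64 bases spanned 0.358 in the authors' deposited table, from -0.116 in PRMT1 to 0.242 in PRMT3 knockdown. For KPNA1, an importin alpha, an exon of 243 bases spanned 0.345 in the authors' deposited table, from -0.238 in PRMT4 to 0.107 in PRMT6 knockdown. A RANBP17 exon of 36 bases spanned 0.298 in the authors' deposited table, from -0.104 in PRMT6 to 0.194 in PRMT3 knockdown.

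Most of these exons were also read with other flanks, and no other reading went at least 0.1 in both directions. In the authors' deposited table the other readings of the NUP62 exon of 114 bases had differences of -0.143 to 0.003, and 2 of them were negative in all 6 knockdowns. In the authors' deposited table other readings of the NUP62 exons lay at -0.085 to 0.034 for 122 bases and at -0.106 to 0.02 for 155 bases. The other reading lay at -0.076 to 0.016 for the RANBP3 exon, at -0.072 to 0.056 for KPNA1, at -0.026 to 0.013 for XPO6 and at 0 to 0.021 for XPO1, in the authors' deposited table. NUP35, the RANBP3 splice sites and the RANBP17 exon had 1 reading each.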

How the results depend on the processing

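No paired analysis was possible because the tables hold 1 column per target, and leaving out a library was not possible for the same reason. Counts are given for PRMT1, PRMT3, PRMT4, PRMT5, PRMT6 and PRMT7 knockdown in that order. MISO members differing were 2, 3, 1, 1, 0 and 1. They were 6, 8, 3, 5, 2 and 6 at a threshold of 0.05, and 0, 0, 0, 1, 0 and 0 at 0.2, where 19.9% to 25.0% and 0.869% to 2.51% of all events differed. With the mean of the other 5 knockdowns as reference they were 1, 3, 0, 1, 1 and 0. With events of a sole symbol, which removes NUP62, they were 2, 1, 1, 1, 0 and 1. Taking 1 event per gene gave 2, 2, 1, 1, 0 and 1. Limiting events to a mean PSI from 0.05 to 0.95, or admitting those that lack values in other knockdowns, gave the same counts as before. Counts in the authors' deposited table of 17, 42, 25, 24, 33 and 24 became 47, 74, 60, 58, 54 and 50 at 0.05, and 10, 15, 9, 9, 11 and 11 at 0.2, where 23.8% to 27.6% and 5.23% to 6.51% of all events differed. Events with a value for the knockdown at hand, numbering 824, 777, 845, 762, 734 and 804 in place of 529, gave 43, 67, 45, 43, 48 and 41. The 61 events matched to MISO gave 1, 2, 1, 0, 0 and 0. Counting 1 median value for each of 451 alternative parts, a choice made after seeing the data, gave 8, 29, 15, 16, 20 and 16. The share of all events that differed was not computed under these changes of the event set. The causes of these shifts were not tested. The 4 differing MISO events gave 8 differences of at least 0.1, and none of these 8 changed direction when recomputed, but all became smaller in size. With the mean of the other 5 knockdowns as reference they lay from -0.158 to -0.024. The 5 with matched junctions had -0.106 to -0.016 in the authors' deposited table, where the IPO13 event had no match. With no read numbers, the error of a PSI is unknown, and a difference of 0.1 may lie within it.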

Other observations

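The authors' deposited table holds 27 member events with the same value, other than 0, in all 6 columns. Apart from the NXF1 exon at 0.465 these values were small: the next were 0.02 for a NUP214 exon of 62 bases, 0.017 for a NUP214 exon of 85 bases and 0.015 for an XPO4 exon of 117 bases, in the authors' deposited table. The genes with an event that differed in the same direction in all 6 columns of the authors' deposited table were NXF1, TNPO2, NUP54 and RANBP17, and of these NUP54 alone had an event with a PSI in every MISO column. How many events of the whole table did so was not counted.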
